A study of Mus musculus with 217 samples.

Results

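Synaptic and neuronal transcripts are the mRNAs for the release machinery, receptors, scaffolds and cytoskeleton of nerve cells, and 31 of them were followed in the endothelial translatome of brain, heart and lung after systemic LPS. The 31 genes were listed by name, with earlier results of these data known, and were matched by symbol among the 52550 genes of the count tables. All of the groups came from adult C57BL/6J RiboTagEC mice of the genotype Cdh5CreERT2/+; Rpl22HA/+, given 5 mg tamoxifen by gavage 4 times on alternate days at 4 to 6 weeks of age, in which the Cdh5 (VE-cadherin) promoter drives Cre and places an HA tag on the ribosomal protein Rpl22 of endothelial cells (ECs). The 0 hr group was the control, and the other groups were collected 6, 24, 48, 72 or 168 hr after intraperitoneal LPS at 10 mg/kg. Tagged ribosomes were immunoprecipitated with an anti-HA antibody from homogenised tissue and the bound mRNA was sequenced, so a level is the share of a transcript in the mRNA on the beads. The labels do not say that replicates are separate animals, and p-values measure the spread between these libraries only.

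Neurons pass signals at synapses. On the presynaptic side, SNARE proteins (Snap25, Vamp2), calcium sensors (Syt1, Syt4) and vesicle proteins (Syn1, Syn2, Syp, Sv2a, Sv2b) load and fuse transmitter vesicles, and neurexins (Nrxn3) reach across the cleft to neuroligins (Nlgn1, Nlgn3). On the postsynaptic side, AMPA receptors (Gria1, Gria2, Gria3) and NMDA receptors (Grin1, Grin2b) respond to glutamate, and Gabrb2 is a GABA-A receptor subunit. Dlg4 (PSD-95), Shank3, Homer1 and the kinase subunits Camk2a and Camk2b are parts of the postsynaptic density. Gad1 and Gad2 are the enzymes that make GABA. Rbfox3 (NeuN), Tubb3, Nefl, Nefm, Map2 and Eno2 are used as markers of neuronal identity and of the neuronal cytoskeleton. In brain tissue these transcripts are known chiefly from neurons.

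The files held 98 libraries after runs of the same library were summed, and 80 of them, with at least 3% of reads on genes, were used: 28 from brain, 28 from heart and 24 from lung. Depth on genes was 7226796 to 32891759 counts in brain, 8136031 to 33050750 in heart and 284457 to 43417945 in lung. The deposited files follow 4 naming patterns, called library series 1 to 4 here, whose meaning is not given in the sources used here; the 18 libraries left out were exactly series 3. In brain, series 2 holds most 0 and 6 hr libraries and series 4 holds none before 24 hr, so series and time overlap, and series was a term in every fit. Of a list of 10 LPS-induced genes, 10 rose at 6 hr and 9 at 24 and 48 hr in brain. At 24 hr Lcn2, an acute-phase iron-scavenging protein, had a log2 fold change of 8.98 ± 1.06 (SE, adjusted p = 3.2e-05) and the chemokine Cxcl1 had 8.60 ± 1.43 (adjusted p = 6.3e-04). The series 1 library labelled 6 hr stood apart in brain (replicate 6, 1076 summed CPM of that list against 10004 to 14109 in the other 4) and in heart (replicate 5, 1210 against 15920 to 23813), close to the 0 hr ranges of 326 to 868 and 609 to 814, and results that rest on these libraries are given with and without them.

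The promoters of 2 members that carry the results below are shown because they hold letters of elements tied to neuronal restriction and to activity-driven transcription. Promoter windows of 300 bases, from 250 before to 50 after the start of transcription, were available from RefSeq (GRCm38.p6) for 21 of the 31 members. CAGCACC, a half-site of the RE1 element through which REST holds neuronal genes silent outside neurons, was found on either strand, in a window of any start of the gene, in 4 of the 21 (Syn1, Nlgn1, Dlg4 and Tubb3), against 8.14% of all 27025 genes with a window. TGACGT, the half-site of the cAMP response element, was in 2 of the 21 (Syn1 and Homer1), against 8.37% of all genes, and the NF-kappaB letters GGANTTTCC were in 1 (Nrxn3), against 1.45%. A match is a description of the letters and not a binding site. The Tubb3 window lies at chr8:123411303-123411602, plus strand, and its capitals mark the RE1 half-site read on the opposite strand, at position -121 from the start:
Tubb3: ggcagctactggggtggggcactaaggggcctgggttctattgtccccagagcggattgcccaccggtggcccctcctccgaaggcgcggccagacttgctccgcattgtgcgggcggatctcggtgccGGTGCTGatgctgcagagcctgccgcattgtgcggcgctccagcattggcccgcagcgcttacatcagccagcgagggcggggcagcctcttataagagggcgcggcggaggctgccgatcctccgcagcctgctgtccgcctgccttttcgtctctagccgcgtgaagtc
Homer1 has 2 windows, and that at chr13:93307784-93308083 held none of the letters searched. The other lies at chr13:93303507-93303806, plus strand, and its capitals mark 3 cAMP response half-sites, at positions -56, -40 and -14:
Homer1: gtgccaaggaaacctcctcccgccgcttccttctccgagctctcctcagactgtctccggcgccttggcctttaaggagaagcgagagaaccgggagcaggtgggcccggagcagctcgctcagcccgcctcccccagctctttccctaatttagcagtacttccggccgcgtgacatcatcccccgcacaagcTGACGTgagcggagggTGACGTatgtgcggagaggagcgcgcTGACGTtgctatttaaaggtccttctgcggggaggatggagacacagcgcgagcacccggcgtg

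In brain ECs few members changed past the threshold at any time after LPS. All 31 were tested at each time against 0 hr, and the counts that passed the threshold (edgeR quasi-likelihood test, adjusted p below 0.05 over 19234 genes) were 0, 1, 2, 0 and 0 at 6, 24, 48, 72 and 168 hr, and the members called were all lower. Over all genes tested in brain the shares called at those times were 6.44%, 11.2% (4.66% lower), 14.2% (6.12% lower), 3.53% and 0.0%. At 6, 72 and 168 hr, where no member passed, 1, 3 and 0 members had an unadjusted p under 0.05. DESeq2 called 0, 1 and 0 members there, and limma-voom called 0 at each. The median SE of a member's log2 fold change was 0.24 to 0.27, against 0.27 to 0.31 over all genes tested.

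The member values nevertheless shared a direction that turned over the course. At 6 hr the log2 fold change was above 0 for 30 of 31 members with a median of 0.28, against 50.4% of all genes and a median of 0.00, and without the library that stood apart it was above 0 for 27 with a median of 0.22. At 24 hr it was above 0 for 15 of 31, with a median of -0.02. At 48 hr it was above 0 for 7 of 31 with a median of -0.25, and at 72 hr for 4 of 31 with a median of -0.26, against 51.4% and 45.8% of all genes. At 168 hr it was above 0 for 28 of 31 with a median of 0.18, against 60.6% of all genes and a median of 0.09. These counts carry no test, since the members vary together between libraries and are not independent of each other. The direction also rests on the series term at the later times: without it the medians were 0.44, -0.71, -0.75, -0.39 and -1.03, with 1 of 31 members above 0 at each time from 24 to 168 hr. Within series 2 alone, where 0, 6, 48 and 72 hr can be compared, the members were above 0 in 28, 6 and 10 of 31 cases, with medians of 0.27, -0.34 and -0.15.

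Some lists of other genes moved in the same way over all or part of the course. The 22 tested presynaptic genes outside the members had medians of 0.31, 0.02, -0.34, -0.28 and 0.20 from 6 to 168 hr. The oligodendrocyte list (11 genes) had -0.01, -0.39, -0.61, -0.41 and 0.45, and the choroid plexus list (8 genes, 3 of them lower at 48 hr) had 0.06, -0.41, -0.54, -0.64 and 0.36. The later fall was thus not limited to neuronal lists. At 6 hr, though, the oligodendrocyte and choroid plexus medians were -0.01 and 0.06, against 0.28 for the members. The astrocyte list (12 genes) did not fall at 48 hr, with medians of 0.05, 0.15, 0.11, -0.15 and 0.18 from 6 to 168 hr. The endothelial list (15 genes) had -0.41, -0.11, 0.38, 0.43 and -0.06, and of 10 microglia genes 4 were higher at 48 hr. The part of these cells in the member values was not tested.

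**Figure D1:**
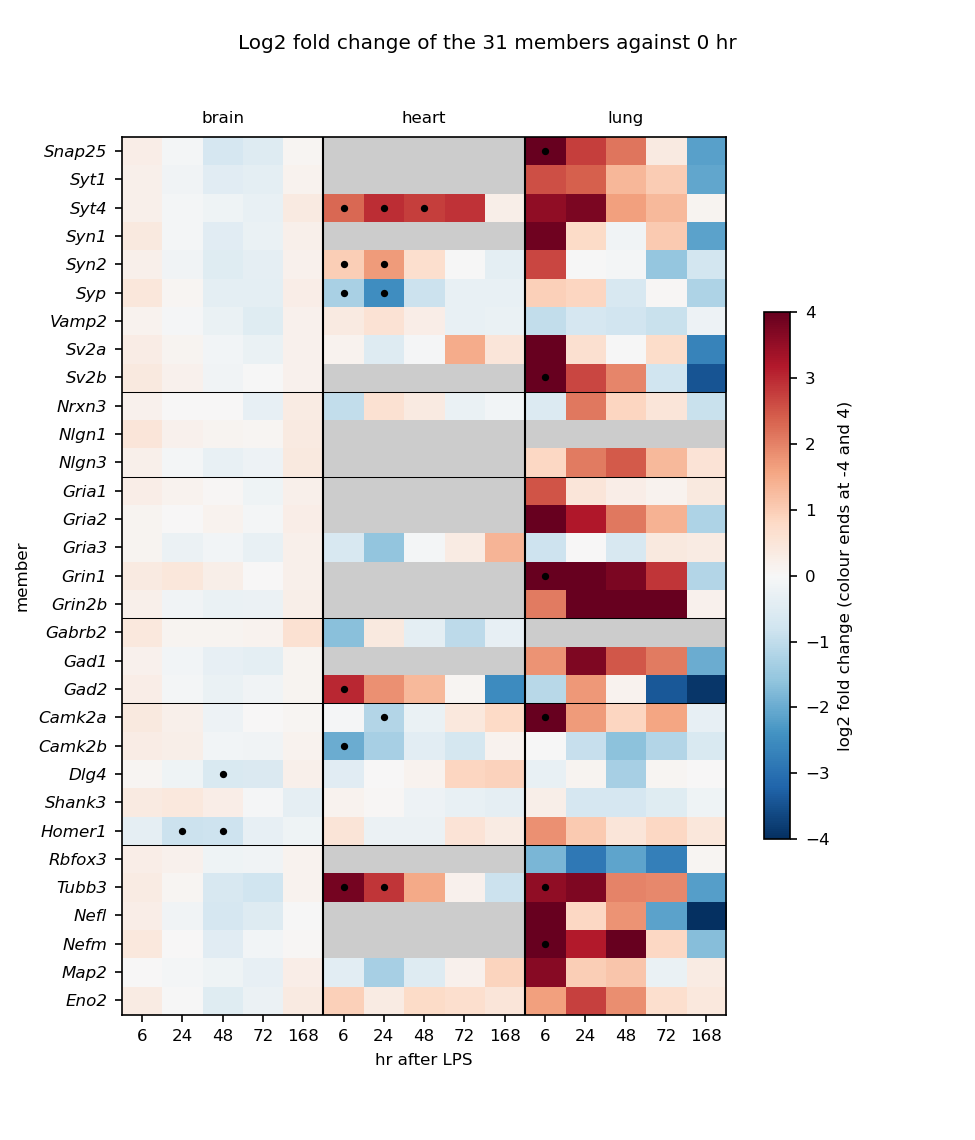
Log2 fold change against 0 hr of the members (y axis, 1 row per member, grouped by role; x axis, hr after LPS in brain, heart and lung; colour, log2 fold change from the edgeR fit, red above 0 and blue below, with the scale ending at -4 and 4). Dots mark members past the threshold and grey marks members not tested. The brain columns are pale, with Homer1 and Dlg4 dotted, while single heart members and many lung members at 6 hr are deeply coloured.

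The vesicle and release genes followed this pattern most evenly. All 9 were above 0 at 6 hr (median 0.28), 3 at 24 hr (median -0.08), 0 at 48 hr (median -0.39), 0 at 72 hr (median -0.36) and 9 at 168 hr (median 0.18), and none passed the threshold. Snap25, the plasma membrane SNARE of nerve terminals, had the highest level per kilobase of all members in brain, at 7.22 log2 CPM per kb, rank 206 of 34192 detected genes. Its levels were 9.18, 9.81, 10.54, 11.21 and 10.26 log2 CPM at 0 hr, 11.34, 9.79, 11.37, 11.18 and 9.98 at 6 hr, and 9.09, 11.05, 8.09 and 8.72 at 24 hr. At 48 hr the lowest, median and highest of 6 libraries were 7.92, 8.67 and 9.95, at 72 hr the levels were 10.86, 10.01, 8.85 and 7.49, and at 168 hr 10.28, 8.71, 8.65 and 8.53. The groups overlapped at every time and the spread within a group was several-fold. In the fit with the series term, the 48 hr difference of -0.68 ± 0.33 (SE) did not pass (adjusted p = 0.16). Vamp2, the vesicle SNARE, and Syp, an abundant vesicle membrane protein, came next per kilobase, at 7.07 and 7.03 log2 CPM per kb.

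Adhesion molecules and receptors had small differences. Nrxn3, the presynaptic neurexin, had log2 fold changes of 0.18, 0.00, 0.01, -0.34 and 0.32 from 6 to 168 hr. Its levels at 0 hr were 4.89, 5.38, 6.63, 6.45 and 6.99 log2 CPM, and at 48 hr the lowest, median and highest were 4.19, 4.92 and 6.94, ranges that overlapped almost fully. The 5 glutamate receptor subunits had medians of 0.20, 0.03, 0.04, -0.18 and 0.21. Gria1, the AMPA receptor subunit with the highest level per kilobase among them, had log2 fold changes of 0.28, 0.14, 0.04, -0.18 and 0.20. The widest receptor value was that of Grin1, the obligate NMDA receptor subunit, at 0.46 at 24 hr, which did not pass. The GABA genes had medians of 0.28, -0.08, -0.25, -0.15 and 0.12, and Gad1, one of the enzymes that make GABA from glutamate, had 0.17, -0.11, -0.33, -0.38 and 0.12. Gad1 levels were 6.17, 6.86, 8.00, 7.96 and 8.19 log2 CPM at 0 hr and 6.25, 8.16, 5.61 and 5.72 at 24 hr, so that libraries of both groups lay above and below each other.

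**Figure D2:**
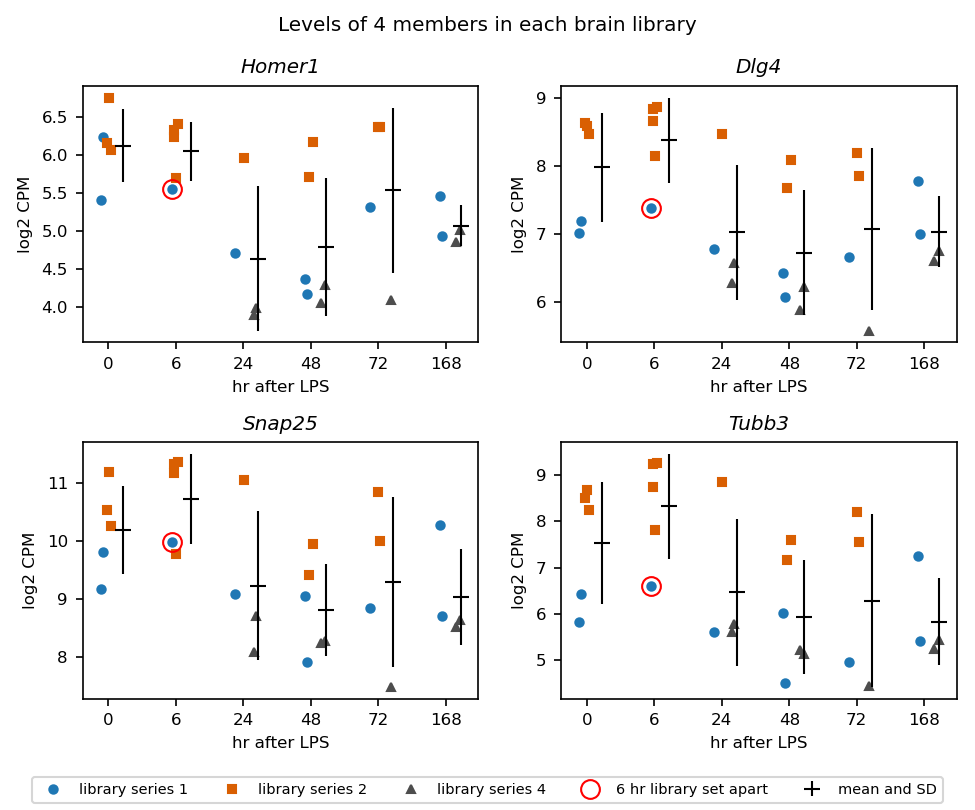
Levels of Homer1, Dlg4, Snap25 and Tubb3 in each brain library (y axis, log2 CPM with TMM scaling; x axis, hr after LPS), with library series shown by colour and marker, the library that stood apart ringed, and crosses for the mean and SD of each time. For Dlg4 and Tubb3 every series 2 library lies above the series 1 and 4 libraries of the same time.

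The members past the threshold in brain were both postsynaptic scaffolds. Homer1 (ENSMUSG00000007617, chr13:93299635-93405129, mm10), which links glutamate receptors to the Shank proteins and to intracellular calcium stores, had levels of 5.41, 6.23, 6.16, 6.75 and 6.07 log2 CPM at 0 hr and 4.71, 5.95, 3.90 and 3.99 at 24 hr. At 48 hr its lowest, median and highest levels were 4.05, 4.32 and 6.17, at 6 hr the levels were 6.23, 5.70, 6.41, 6.33 and 5.56, at 72 hr 6.37, 6.37, 5.32 and 4.09, and at 168 hr 5.46, 4.94, 5.01 and 4.86. In words, 3 of the 4 libraries at 24 hr and 4 of the 6 at 48 hr lay below every 0 hr library, and the rest lay inside the 0 hr range, so the groups overlapped. The fitted log2 fold change was -0.36 at 6 hr (adjusted p = 0.42), -0.87 ± 0.25 (SE, adjusted p = 0.026, 95% interval -1.36 to -0.38) at 24 hr and -0.83 ± 0.22 (adjusted p = 0.015, -1.26 to -0.40) at 48 hr. It was -0.34 at 72 hr (adjusted p = 0.53) and -0.18 at 168 hr (adjusted p = 0.93). The counts are summed over the gene and do not separate the short activity-induced Homer1 transcript from the long ones.

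Dlg4 (ENSMUSG00000020886, chr11:70016942-70047522, mm10) encodes PSD-95, the core scaffold of excitatory synapses. Its levels were 7.01, 7.19, 8.63, 8.59 and 8.46 log2 CPM at 0 hr, its lowest, median and highest levels at 48 hr were 5.87, 6.32 and 8.08, and at 72 hr it had 8.19, 7.85, 6.66 and 5.57. At 48 hr 4 of 6 libraries lay below every 0 hr library and the other 2 lay inside the 0 hr range. The fitted log2 fold change was -0.61 ± 0.17 (SE, adjusted p = 0.017, 95% interval -0.94 to -0.29) at 48 hr and -0.58 ± 0.18 at 72 hr, which did not pass (adjusted p = 0.078). At 6, 24 and 168 hr it was 0.09, -0.16 and 0.22.

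Read within library series, both scaffolds were lower at 48 hr than at 0 hr, by unequal amounts. Homer1 had means of 5.82 log2 CPM at 0 hr (n = 2) and 4.27 at 48 hr (n = 2) in series 1, and 6.33 (n = 3) and 5.94 (n = 2) in series 2. A fit on series 2 alone, in which 298 of 19268 genes passed at 48 hr in place of 2738 of 19234, gave -0.34 (adjusted p = 0.45). Dlg4 had means of 7.10 and 6.24 in series 1 and 8.56 and 7.88 in series 2, and series 2 alone gave -0.62 (adjusted p = 0.23), close to the full value. The 2 libraries of series 4 at 48 hr were the lowest or among the lowest for both genes, and with no 0 hr library in that series they cannot be read against a control of their own. The Homer1 call at 24 hr was the least firm, since it was lost on leaving out any of 7 of the 9 libraries (0 hr replicate 1, 2 or 4, or any 24 hr library; log2 fold change -0.95 to -0.61, adjusted p 0.051 to 0.105), and without series 4 it was -0.75 (adjusted p = 0.19), where 701 of 19698 genes passed in place of 2151 of 19234. At 48 hr Homer1 was lost without 0 hr replicate 2 (-0.57, adjusted p = 0.077) or 48 hr replicate 3 (-0.74, adjusted p = 0.052), and Dlg4 without 0 hr replicate 1 (-0.61, adjusted p = 0.060) or 48 hr replicate 3 (-0.59, adjusted p = 0.060).

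The other postsynaptic genes did not pass the threshold. Shank3, which binds Homer1 in the density, had log2 fold changes of 0.42 at 24 hr and 0.27 at 48 hr, and Camk2a, the most abundant postsynaptic member per kilobase at 6.05 log2 CPM per kb, had 0.39, 0.19, -0.19, 0.01 and 0.07. Camk2a levels were 7.85, 8.61, 9.87, 9.26 and 9.50 log2 CPM at 0 hr, and 10.10, 9.44, 10.29, 9.99 and 8.74 at 6 hr, with overlapping ranges.

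Neuronal identity and cytoskeleton genes had the lowest medians at 48 hr. All 6 were above 0 at 6 hr (median 0.30), 3 at 24 hr (median -0.01), 0 at 48 hr (median -0.47), 0 at 72 hr (median -0.28) and 5 at 168 hr (median 0.14). Nefl, the light neurofilament subunit, had -0.67 at 48 hr. Tubb3 (ENSMUSG00000062380, chr8:123411424-123422015, mm10), the neuron-enriched beta-tubulin whose promoter is shown above, had levels of 5.82, 6.42, 8.50, 8.68 and 8.25 log2 CPM at 0 hr, and 9.24, 7.81, 9.26, 8.74 and 6.59 at 6 hr. At 24 hr it had 5.61, 8.86, 5.62 and 5.78, at 72 hr 8.21, 7.55, 4.95 and 4.44, and at 168 hr 7.25, 5.41, 5.43 and 5.25. Its levels split into a higher and a lower set within most groups, and the largest difference, -0.80 ± 0.35 (SE) at 72 hr, did not pass (adjusted p = 0.25).

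Member levels in brain differed widely between library series at the same time after LPS. The summed level of the 31 members had a median of 3278 CPM in the 9 libraries of series 1 (1724 to 6566), 10796 CPM in the 12 of series 2 (6048 to 15852) and 2290 CPM in the 7 of series 4 (1367 to 2514), a 4.71-fold span between the highest and the lowest median. At 0 hr alone, the 2 libraries of series 1 had 3160 and 4558 CPM and the 3 of series 2 had 9518 to 11691. At 48 hr series 1 had 1724 and 3278, series 2 had 6048 and 8577, and series 4 had 2113 and 2335. Marker lists of other brain cells moved with the series in the same way: the oligodendrocyte list (11 genes) had medians of 1664, 4963 and 1232 CPM in series 1, 2 and 4, the astrocyte list (12 genes) 1943, 4342 and 1918, and 24 other presynaptic genes 1609, 4712 and 1100. The endothelial list (15 genes) ran the other way, at 6227, 4211 and 6033 CPM. Whether RNA of these cells on the beads had a part in the member levels was not tested. In bulk samples such as these, fewer cells of a type and less RNA per cell cannot be told apart.

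**Figure D3:**
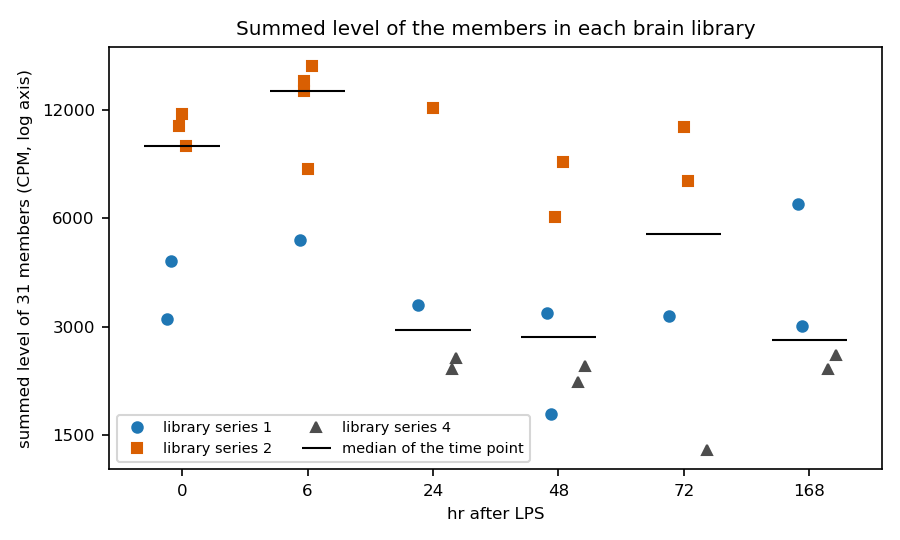
Summed level of the 31 members in each brain library (y axis, TMM-scaled CPM on a log axis; x axis, hr after LPS), with library series shown by colour and marker and a line at the median of each time. Series 2 libraries lie at 6048 to 15852 CPM and series 4 libraries at 1367 to 2514 CPM, and time points differ in which series they hold.

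Members differed in how closely they followed this common level. Over the 28 brain libraries the SD of a member's level had a median of 1.10 on the log2 scale, from 0.43 for Shank3 to 1.55 for Tubb3. Taken relative to the sum of the other members, the median SD was 0.32. Syt1 (0.14), Syn2 (0.14) and Syt4 (0.16), all vesicle genes, kept the most constant share, and Gabrb2 (1.07), Shank3 (0.97), Gria2 (0.68) and Tubb3 (0.55) the least. Gabrb2 is also the lowest member per kilobase, at -1.68 log2 CPM per kb, where counting error is greatest. Shank3 was not low, and stood out as a member that did not scale with the rest: its levels ran from 5.60 to 7.12 log2 CPM in all 28 libraries. Relative to the sum of the other members the mean of Shank3 was -6.45, -6.57, -5.19, -5.20, -5.79 and -5.76 on the log2 scale from 0 to 168 hr, as means over groups that hold different series, with series 4 present from 24 hr on.

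Other neuronal genes, from lists that exclude the members, had few calls in brain too. Over all genes tested in brain 4.66% were lower and 6.52% higher at 24 hr, and 6.12% lower and 8.11% higher at 48 hr. Of 22 tested other presynaptic genes 0 passed at any time. Of 23 other postsynaptic and receptor genes, 1 fell at 24 hr and 2 fell at 48 hr, counts near the shares over all genes. They were Dlg2 (-0.57 at 24 hr, adjusted p = 0.038, and -0.63 at 48 hr, adjusted p = 0.0079) and Dlg3 (-0.55 at 48 hr, adjusted p = 0.026), which belong to the same family as Dlg4. Among 24 excitability and cytoskeleton genes, the potassium channel gene Kcna1 rose at 24 hr (1.13, adjusted p = 0.022) and 48 hr (1.07, adjusted p = 0.015), and Stmn2, a regulator of axonal microtubules (-0.98, adjusted p = 0.0046), and Ina, alpha-internexin (-0.84, adjusted p = 0.0075), fell at 48 hr. Of 12 neuropeptide and interneuron genes 1 fell, Crh, corticotropin-releasing hormone, at 48 hr (-1.85, adjusted p = 0.0033). Of 13 activity-dependent genes 1 fell at 24 hr, Inhba (-1.49, adjusted p = 0.012), and 1 at 48 hr, the neurotrophin gene Bdnf (-0.99, adjusted p = 0.036). Of 11 oligodendrocyte genes 1 fell at 24 hr and 1 at 48 hr. The genes named here were chosen after their values were seen.

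In heart ECs most members were rare and a few changed by large factors. Only 17 of 31 had enough counts to test, and the other 14, among them Snap25, Syt1, Gria1, Grin1 and Rbfox3, never exceeded 21 counts in a heart library. Vamp2 and Shank3, genes with roles outside neurons as well, made up 79.7% of all member counts in heart and 76.9% in lung, but 9.4% in brain. Shank3 was higher per kilobase in heart (4.75 log2 CPM per kb) than in brain (3.28) and stayed between 7.40 and 8.37 log2 CPM in every heart library, with no call at any time. Calls were 6 of 17 at 6 hr (4 higher, 2 lower), 5 at 24 hr (3 higher, 2 lower), 1 higher at 48 hr and 0 at 72 and 168 hr. Over all 16024 genes tested in heart the shares called from 6 to 168 hr were 42.8% (22.4% higher, 20.3% lower), 16.2% (9.07% higher, 7.11% lower), 4.19% (3.08% higher), 0.275% and 0.0%, so the 6 of 17 members at 6 hr did not exceed the background. Without the library that stood apart the same 6 members passed at 6 hr, with 9332 of 15990 genes. Without library series 4, 3 members passed at 24 hr (Tubb3, Syn2 and Syt4) and 0 at 48 hr, with 782 and 227 of 16444 genes in place of 2594 and 671 of 16024. Where no member passed, 2 had an unadjusted p under 0.05 at 72 hr and 2 at 168 hr, and DESeq2 called 1 at 72 hr. The 17 tested members had medians of 0.14, 0.06, -0.06, 0.17 and 0.13, with 9, 10, 8, 10 and 9 above 0.

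Tubb3 had the largest rise in heart at 6 hr. Its levels were 1.14, -1.94, 0.09, -1.36 and -0.44 log2 CPM at 0 hr (2 to 27 counts), 2.42, 3.49, 3.48 and 3.97 at 6 hr with -0.88 in the library that stood apart, and 3.65, 2.20, 3.86 and 3.69 at 24 hr (109 to 337 counts). At 48 hr the lowest, median and highest were 0.39, 2.26 and 2.67, and the 72 and 168 hr medians were -0.10 and 0.04. Every 24 hr library and, without the library that stood apart, every 6 hr library lay above every 0 hr library. The log2 fold change was 3.84 ± 0.68 (SE, adjusted p = 2.2e-04) at 6 hr, 4.32 without the library that stood apart and 4.11 within series 2, and 2.87 ± 0.69 (adjusted p = 0.0093) at 24 hr. Both calls held in every alternative run, 21 at 6 hr and 19 at 24 hr.

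Syn2, a synapsin that tethers vesicles, was the heart member with the firmest 24 hr rise. Its levels were 4.65, 4.07, 4.42, 4.39 and 4.19 log2 CPM at 0 hr, 4.80, 5.09, 5.32, 5.94 and 4.88 at 6 hr, and 6.54, 6.46, 6.32 and 6.10 at 24 hr. All of the 6 and 24 hr libraries lay above the 0 hr libraries, with the 24 hr set the highest. The log2 fold change was 0.99 ± 0.29 (SE, adjusted p = 0.0087) at 6 hr, or 1.16 (adjusted p = 0.0015) without the library that stood apart, and 1.70 ± 0.31 (adjusted p = 0.0017) at 24 hr. Exons of Timp4 on the opposite strand overlap those of Syn2 by 90 bases, and the strand setting of the counting is not given in the sources used here; Timp4 itself had -1.17 at 6 hr and was not called. Syp and Syt4 likewise overlap Gm14703 (875 bases) and Gm26658 (566 bases) on the opposite strand. Syt4, a synaptotagmin of dense-core vesicles, was near the detection limit, with 1 to 4 counts at 0 hr, 2 to 27 at 6 hr, 9 to 31 at 24 hr and 7 to 70 at 48 hr. All 24 and 48 hr libraries were above all 0 hr libraries, while the 6 hr libraries overlapped them. Its log2 fold change was 2.31 ± 0.73 (SE, adjusted p = 0.015), 2.94 ± 0.75 (0.013) and 2.77 ± 0.72 (0.028) at 6, 24 and 48 hr, and 2.91 at 72 hr did not pass (adjusted p = 0.090). Without the library that stood apart its 6 hr value was 2.71 (adjusted p = 0.0022). The Syt4 calls were lost without 6 hr replicate 4 (1.56, adjusted p = 0.089), without 24 hr replicate 2 (2.42, adjusted p = 0.11) and, at 48 hr, without 0 hr replicate 2, 3 or 4 (2.53 to 2.69, adjusted p 0.066 to 0.085). Gad2, the other GABA-making enzyme, had 0 to 3 counts at 0 hr and 5, 5, 18, 15 and 0 at 6 hr, the 0 in the library that stood apart, for a log2 fold change of 3.02 ± 0.93 (adjusted p = 0.013), or 3.72 (adjusted p = 4.2e-04) without that library. Syt4 and Gad2 passed the filter on low counts only through libraries after LPS, so they could hardly be called lower.

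**Figure D4:**
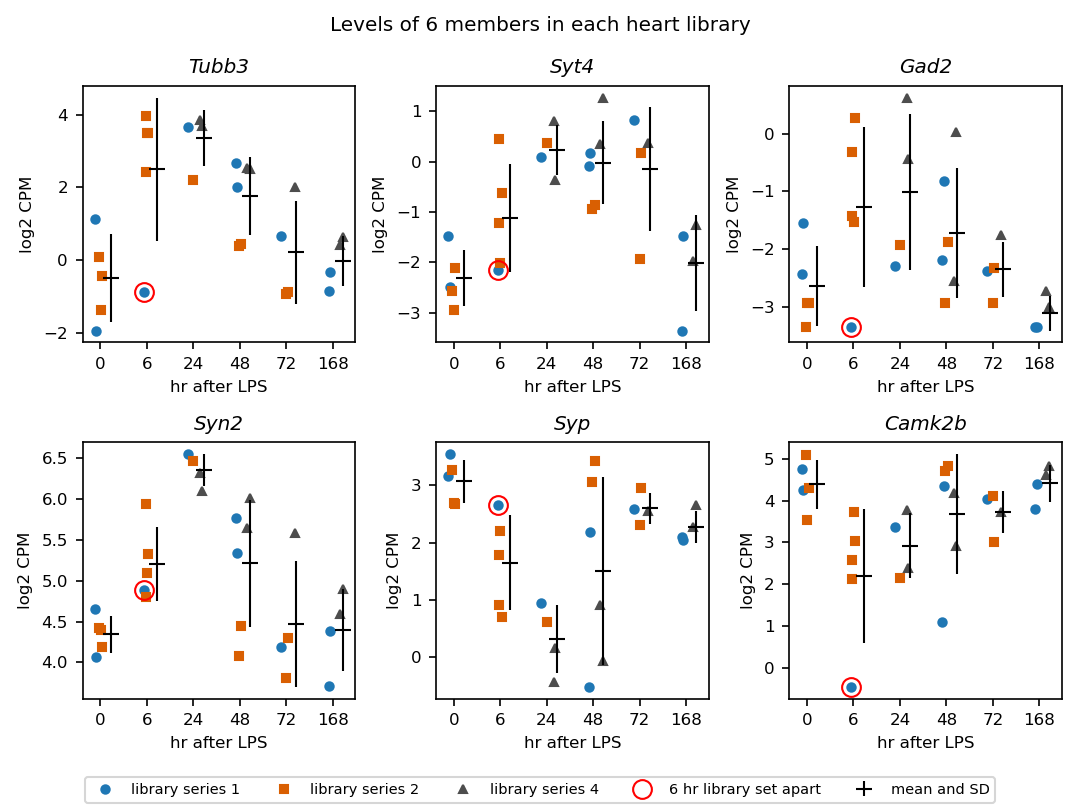
Levels of Tubb3, Syt4, Gad2, Syn2, Syp and Camk2b in each heart library (y axis, log2 CPM with TMM scaling; x axis, hr after LPS), with library series shown by colour and marker, the library that stood apart ringed, and crosses for the mean and SD of each time. Every 24 hr library lies above every 0 hr library for Tubb3, Syt4 and Syn2 and below it for Syp, and at 168 hr the mean of Tubb3 (-0.03) and of Syn2 (4.40) is near that at 0 hr (-0.50 and 4.35).

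Vesicle and kinase members also fell in heart. Syp levels were 3.16, 3.55, 3.27, 2.69 and 2.67 log2 CPM at 0 hr, 1.79, 2.20, 0.71, 0.91 and 2.65 at 6 hr, and 0.94, 0.62, -0.43 and 0.16 at 24 hr, so that neither later group overlapped the control. Its log2 fold change was -1.29 ± 0.51 (SE, adjusted p = 0.043) at 6 hr and -2.48 ± 0.62 (adjusted p = 0.012) at 24 hr. The 6 hr call was lost on leaving out any of 7 of 10 libraries (0 hr replicate 1, 2 or 3, or 6 hr replicate 1, 2, 3 or 4; -1.38 to -1.11, adjusted p 0.057 to 0.105), but without the library that stood apart it was -1.84 (adjusted p = 0.0059). The 24 hr call was lost without 24 hr replicate 2 (-2.39, adjusted p = 0.066). Camk2b, a beta subunit of the calcium-dependent kinase also made outside neurons, had 4.76, 4.26, 5.08, 3.55 and 4.30 log2 CPM at 0 hr and 2.59, 3.73, 3.03, 2.14 and -0.44 at 6 hr. These groups overlapped at 1 library, and the log2 fold change was -1.99 ± 0.58 (adjusted p = 0.0094), or -1.57 (adjusted p = 0.014) without the library that stood apart. Camk2a had 2.51, 2.56, 2.81, 3.03 and 2.88 at 0 hr and 1.68, 1.40, 0.94 and 0.72 at 24 hr, with no overlap and a log2 fold change of -1.16 ± 0.33 (adjusted p = 0.023), lost without 24 hr replicate 2 (-0.97, adjusted p = 0.13). Vesicle genes thus included both higher (Syn2, Syt4) and lower (Syp) members at 6 and 24 hr.

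Other neuronal genes in heart had calls in both directions, as had genes in general. Over all genes tested in heart 42.8% were called at 6 hr (22.4% higher, 20.3% lower). At 24 hr 16.2% were called (9.07% higher, 7.11% lower). Of 14 tested presynaptic genes outside the members 1 was higher and 3 were lower at 6 hr, and 0 passed at 24 hr. Of 12 tested postsynaptic and receptor genes 2 were higher at 6 hr and 3 lower at 24 hr, and of 15 excitability and cytoskeleton genes 2 were higher and 4 lower at 6 hr, and 1 higher and 3 lower at 24 hr. Vgf, a secreted neuropeptide precursor, rose by 8.43 at 6 hr and 5.43 at 24 hr on the log2 scale (adjusted p = 1.1e-05 and 0.0027), Npy, a sympathetic neuropeptide, by 4.47 and 4.97 (0.0039 and 0.0072) and Uchl1, a neuronal deubiquitinase, by 2.67 and 2.02 (2.2e-04 and 0.0097). Stmn2 fell by 2.48 and 5.15 (0.013 and 0.0033). Of 10 tested activity-dependent genes 8 were higher and 1 lower at 6 hr, Arc among them at 2.53. The peripheral neuron list (10 genes, 3 tested) had 0 higher and 1 lower at both 6 and 24 hr, with summed levels of 22 to 35 CPM at 0 hr, 12 to 45 at 6 hr and 20 to 40 at 24 hr. The Schwann cell list (8 genes, 4 tested, 2 lower at 6 hr and 1 higher at 24 hr) had 75 to 109, 46 to 130 and 167 to 271 CPM at those times, and the summed members 363 to 431, 396 to 499 and 517 to 569, so that both lay above every 0 hr library at 24 hr. The endothelial list had 14594 to 17239 at 0 hr and 7217 to 16448 at 6 hr. Their part in the member changes was not tested. The genes of this paragraph were named after their values were seen.

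In lung ECs 29 of 31 members could be tested, and 6 rose at 6 hr, against 4.83% of all 17058 genes called and 2.56% called higher. Among the 6, Grin1, Nefm and Sv2b had at most 0, 2 and 13 counts in a 0 hr library. They passed the filter on low counts only through libraries after LPS and could hardly be called lower. The 6 calls are thus no measure of a rise beyond the share over all genes. Of the 4 libraries at 6 hr, 3 were shallow. Lung 6 hr replicates 1, 2 and 4 held 2678119, 2745503 and 284457 counts, and the endothelial list summed to 2073, 2144 and 454 CPM in them before TMM scaling, against 13899 in replicate 3 and 13597 to 20259 at 0 hr. The summed members were 347, 329 and 186 CPM in these libraries without TMM scaling, inside or below the 0 hr range of 240 to 600, but 554, 1315 and 1531 CPM with it. The median log2 fold change of all lung genes at 6 hr was -0.42 with TMM scaling, -0.11 with RLE scaling and 0.16 in DESeq2, and the member values are read against it.

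Grin1 had the largest lung value and no counts at all at 0 hr. It had 0 counts in all 4 libraries at 0 hr and 16, 15, 3 and 2 at 6 hr, which is at least 21.1-fold higher against a floor of 3 counts over the 0 hr group, but at least 2.01-fold in the one deep library. Snap25 had 46, 217, 25 and 13 counts at 6 hr, the 25 in a library of 40128330 counts, and a log2 fold change of 6.40 (adjusted p = 0.010). Nefm (45, 0, 9 and 2 counts), Sv2b (108, 1, 0 and 0) and Tubb3 (54, 0, 200 and 0) each owed most of their counts to 1 library or 2. Their fitted values were 8.10 (adjusted p = 0.037), 6.64 (0.041) and 3.54 (0.040), and Camk2a (69, 28, 60 and 3 counts) had 4.59 (0.039). Leaving out the 3 shallow libraries leaves 1 library at 6 hr, whose spread is then assumed to be that of the other groups. In that fit 0 members and 195 of 19224 genes passed, and the values were -1.98 for Snap25, -4.13 for Sv2b and 3.06 for Tubb3 (adjusted p = 0.18). Within series 2 no gene of 15600 passed at 6 hr, so the 0 members there say nothing about the members.

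**Figure D5:**
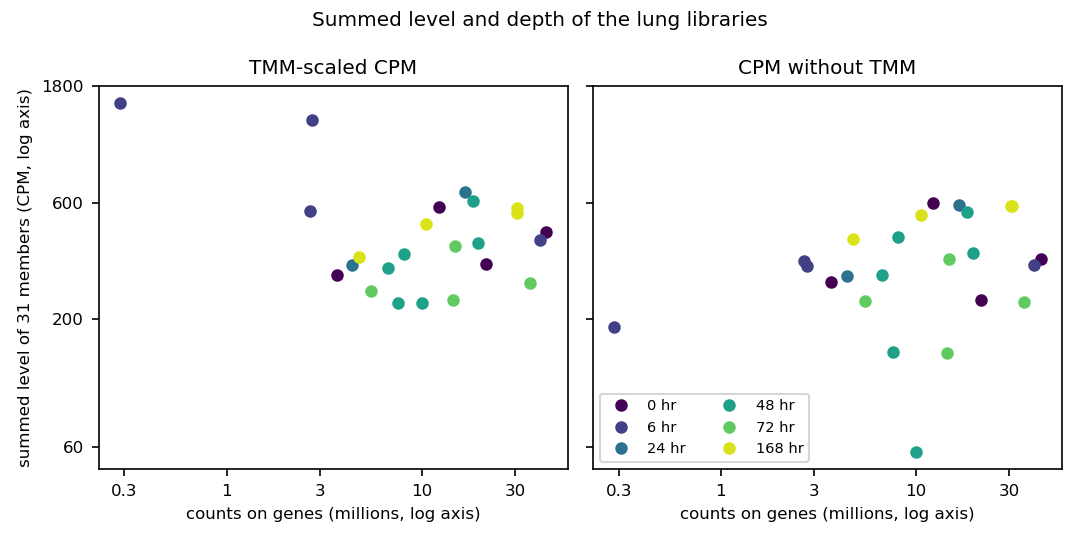
Summed level of the 31 members in each lung library with TMM scaling (left) and without it (right), against counts on genes (x axis, counts in units of 1e6 on a log axis; y axis, CPM on a log axis; colour, hr after LPS). The 3 shallow 6 hr libraries lie at 554 to 1531 CPM in the left panel and at 186 to 347 CPM in the right one, within the range of the other lung libraries.

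At later times 0 lung members passed at 24, 48, 72 or 168 hr, with 3, 6, 2 and 2 at an unadjusted p under 0.05, and the shares of all genes called were 0.375%, 0.598%, 0.193% and 0.0117%. Single lung libraries nevertheless held many more counts of some members than the rest. Snap25 had 827 and 609 counts in 24 hr replicate 3 and 48 hr replicate 7, both of series 4, against 0 to 129 in the other libraries from 24 hr on. Camk2a had 358 and 442 counts and Gad1 147 and 106 in the same 2 libraries. The oligodendrocyte list summed to 179.6 and 149.4 CPM there, above the 25.3 to 116.1 CPM of the other libraries from 24 hr on. Over all times the highest value was 194.9 CPM, in the shallow 6 hr replicate 1. The astrocyte list summed to 167.4 and 144.9 CPM, inside the 23.7 to 176.5 CPM of the other libraries from 24 hr on. What these counts came from was not tested.

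The LPS course of the members was then compared between tissues in a single fit over all 80 libraries. Its series term was shared by the tissues. The summed members had medians of 10796 and 2290 CPM in series 2 and 4 in brain, but 394 and 465 in heart and 338 and 559 in lung. Series shifts particular to brain therefore stay in its time terms, and cannot be told apart from a different LPS course. Against heart, the course in brain differed for 2 of 31 members, against 2.87% of 22007 genes. Of the 31, 14 had at most 21 counts in a heart library and could not be tested in heart alone. They entered this fit through their counts in other tissues, so a missing call says little about their course in heart. Dlg4 differed (adjusted p = 0.026), with brain minus heart log2 fold changes of 0.71, -0.79, -1.21, -1.70 and -1.69 from 6 to 168 hr, and Camk2b (adjusted p = 0.035), with 2.54, 0.94, -0.19, 0.35 and -0.74. In the fits of each tissue alone, Dlg4 was above 0 in brain at 168 hr and no tested heart member exceeded 1.35. The value of -1.69 at that time thus departs from the single-tissue fits. Syt4 (adjusted p = 0.058) and Tubb3 (0.11), which rose in heart, did not pass. Homer1 had brain minus heart values of -0.63, -1.08, -0.95, -1.10 and -1.26 and an adjusted p of 0.94, so no difference between these tissues was detected for it. Without library series 4 neither Dlg4 nor Camk2b passed, with 48 of 21664 genes in place of 632 of 22007, and without the shallow lung libraries, which share the fit, Syn2 and Syt4 passed as well. Against lung, the course differed for 24 of 31 members, against 29.9% of all genes, for 23 without the 3 shallow lung libraries, and for 11 without library series 4, where the genes called over the whole table were 1708 of 21664 in place of 6581 of 22007. Several of the 24 rest on few lung counts. Gabrb2 and Nlgn1 had 17 and 36 counts over all lung libraries and could not be tested in lung alone. Grin2b had 0, 1, 0 and 0 counts in lung at 0 hr. It had 42 in 24 hr replicate 3 and 46 in 48 hr replicate 7, both of series 4. The 2 comparisons share the brain libraries, and the control libraries of each tissue enter every time point. Libraries of different tissues may also come from the same animal, which the labels do not say, and the fit treats them as independent.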

How the data were processed

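The authors aligned reads to mm10 with STAR 2.4.2 and deposited raw counts per Ensembl gene from HTSeq 0.6.1, one file per sequencing run. The strand setting is not given in the sources used here. From the deposited counts, 217 runs were summed to 98 libraries by tissue, time and replicate, and 18 libraries with under 3% of reads on genes were left out. Rows that name no gene held 29.969 to 98.272% of reads and were dropped, and 52403 of 52550 genes had a symbol. Each tissue was fitted with the quasi-likelihood test of edgeR 4.0.16 (R 4.3.3, TMM scaling, filterByExpr by time point, library series as covariate, all times against 0 hr), with Benjamini-Hochberg adjustment over all genes tested. Tissue comparisons tested the 5 tissue-by-time terms together, with a series term shared by the tissues. Levels, as log2 CPM, used 1 TMM scaling over the 80 libraries and a prior count of 2. The scripts were tested on simulated data. Alternatives were DESeq2 1.42.0, limma-voom 3.58.1, other scaling, no filter, no covariate, all libraries, the replicate block, single series and leaving out each replicate. Named genes were the top member per kilobase of each role in brain, the 3 largest changes past the threshold at each time in each tissue, and the 2 genes of other lists that changed most at 24 hr in brain, with further genes named as chosen after their values were seen. The members and lists were chosen with earlier results of these data known. Libraries were not treated as paired by replicate number in the main fits. Of same-numbered pairs, 4 of 20 in brain, 4 of 21 in heart and 8 of 16 in lung deviated together (r over 0.1). Library series was not removed in this check, and most pairs in brain and heart joined different series. It therefore cannot tell whether the numbers pair libraries. Intervals cover counting error only where they are binomial.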

Additional observations from a re-analysis of the deposited data

Results flagged for a closer look

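Within groups of 4 to 10 libraries, 70 sets of values were examined for a single library set apart from the rest, a check that chance alone flags about 1 time in 20, and 5 were found. The 10 LPS response genes summed to 10.07 on the log2 CPM scale in the brain library labelled 6 hr replicate 6, against 13.29 to 13.78 in the other 4, and to 10.24 in the heart library labelled 6 hr replicate 5, against 13.96 to 14.54. Tubb3 in heart at 24 hr was 2.20 log2 CPM in replicate 2 and 3.65 to 3.86 in the others, and all 4 lay above the 0 hr libraries. In lung at 0 hr, Nefm was -1.98 in replicate 4 and Sv2b was -1.04 in replicate 3, while the other libraries were at -3.35, the value of 0 counts.

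The test of a difference in LPS course between tissues passed for 2 members between brain and heart (Dlg4 and Camk2b) and for 24 between brain and lung. Its series term was shared by the tissues, so series shifts particular to brain cannot be told apart from a different course.

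Of the libraries left out for few reads on genes, some held more member counts than the left-out 0 hr library of the same tissue. In brain the summed members were 391.12 CPM at 6 hr (Wilson 95% interval 345.9 to 442.3), 340.91 at 72 hr (299.9 to 387.5) and 394.27 at 168 hr (353.4 to 439.9), against 252.51 at 0 hr, while 280.6 at 24 hr (240.6 to 327.3) and 243.34 at 48 hr (204.7 to 289.3) had intervals that overlapped that of 0 hr (214.9 to 296.8). Nefm alone gave 169 of the 254 member counts at 6 hr and 82 of 147 at 0 hr. In heart they were 226.61 CPM at 48 hr (190.4 to 269.8) and 187.29 at 72 hr (154.7 to 226.7), against 109.44 at 0 hr, while 126.34 at 24 hr (99.1 to 161.0) and 71.38 at 168 hr (52.8 to 96.5) had intervals that overlapped that of 0 hr (86.5 to 138.5), and 62.21 at 6 hr (45.9 to 84.4) lay below it. In lung they were 19.33 CPM at 6 hr (6.6 to 56.8), 37.97 at 24 hr (21.7 to 66.4) and 48.1 at 48 hr (37.7 to 61.4). They were 35.71 at 72 hr (25.8 to 49.4) and 37.24 at 168 hr (24.8 to 55.9). The left-out lung library at 0 hr had 0, with an upper Wilson limit of 5.1 CPM. These are single libraries and the intervals cover counting error only.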

How the results depend on the processing

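Counts of members past the threshold moved by over 1.5 times in the cases given here, and otherwise stayed within that range in the alternatives run; the causes were not tested. Without the covariate for library series the counts were 0 at 24 hr and 0 at 48 hr in brain, 9 at 24 hr and 3 at 48 hr in heart, and 0 for brain against heart. Within library series 2 they were 0 at 48 hr in brain, 0 at 48 hr in heart and 0 at 6 hr in lung, where no gene at all passed. With all libraries, the sparse ones included, they were 1 at 48 hr in brain and 3 at 6 hr in heart. Without a filter on low counts they were 1 at 48 hr in brain, 2 at 48 hr and 1 at 72 hr in heart, and 13 for brain against heart. DESeq2 gave 1 at 72 hr in brain, 1 at 72 hr in heart and 12 at 6 hr in lung, and limma-voom 0 at 24 hr in brain, 1 at 6 hr in lung and 10 for brain against lung.

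Whether same-numbered replicates pair libraries could not be told from these data. With the replicate number as a block, the counts were 0 at 24 hr and 3 at 48 hr in brain, 0 at 48 hr in heart, 4 at 6 hr in lung and 19 for brain against lung, and Homer1 at 24 hr had -0.95 (adjusted p = 0.059).

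Further alternatives were chosen after seeing the data. Without library series 4 the counts were 0 at 24 hr in brain, 3 at 24 hr and 0 at 48 hr in heart, 2 at 6 hr in lung, 0 for brain against heart and 11 for brain against lung. Without the 3 series 1 libraries labelled 6 hr they were 2 at 48 hr and 1 at 72 hr in heart, 2 at 6 hr in lung and 4 for brain against heart. Without the 3 shallow lung 6 hr libraries, which leaves 1 library there, they were 0 at 6 hr in lung and 4 for brain against heart, and Snap25 (-1.98, adjusted p = 0.74) and Sv2b (-4.13, adjusted p = 0.66) turned sign. Without lung 6 hr replicate 4 alone they were 2 for brain against heart and 23 for brain against lung. Leaving out series 3 changed nothing, since those libraries were already out.

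Leaving out each replicate in turn gave 0 to 1 at 24 hr in brain (0 without 0 hr replicate 1, 2 or 4 or any 24 hr replicate) and 0 to 3 at 48 hr (0 without 48 hr replicate 3, 1 without 0 hr replicate 1 or 2). In heart it gave 4 to 7 at 6 hr, 2 to 6 at 24 hr (2 without 24 hr replicate 2), 0 to 1 at 48 hr (0 without 0 hr replicate 2, 3 or 4) and 0 to 1 at 72 hr (1 without 72 hr replicate 1). In lung it gave 1 to 12 at 6 hr (1 without 0 hr replicate 3, 3 without 0 hr replicate 2 or 4, 2 without 6 hr replicate 1 or 4, 12 without the deep 6 hr replicate 3). Lung at 24 hr has 2 libraries, and with either left out the other was assumed to vary like the other groups. At the other times it gave 0 throughout.

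Low member counts limit the heart and lung values most: 14 members in heart and 2 in lung had too few counts to test. Heart libraries were as deep as brain libraries, with medians of 24082214 and 23645892 counts on genes, while the lung median was 11376798.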
